A study of Mus musculus with 4 samples.

Results

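The comparison described here is that of the sh-CACUL1 library with the sh-Luc library, which are 2 of the 4 RNA-seq libraries of the series. Both come from the 3T3-L1 line, mouse fibroblast-like preadipocytes that fill with lipid under adipogenic hormones. The sh-CACUL1 cells stably express a short hairpin RNA against Cacul1, and the sh-Luc cells stably express a hairpin against luciferase, a gene that mouse cells lack. After plasmid transfection both lines were selected as colonies resistant to hygromycin. Each library therefore stands for a single selected population and not for the average of several knockdown lines. Both were brought to confluence and given rosiglitazone (5 μM), IBMX (0.5 mM), insulin (5 μg/ml) and dexamethasone (1 μg/ml). Insulin was then renewed until RNA was taken on differentiation day 8. The FLAG library, from cells that carry an empty expression vector and were selected with another drug, received the same hormones and is used below as a further control. The fourth library, FLAG-CACUL1, appears only as single values. Every group has 1 sample, so no difference has a replicate check, no test was possible, and no SD or p-value is given.

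CACUL1 is a protein with a cullin domain that associates with the cell cycle kinase CDK2. The study asked what it does in adipogenesis, in which the nuclear receptor PPARγ, activated here by rosiglitazone, switches on the genes of lipid storage. A preadipocyte that becomes an adipocyte usually gives up its fibroblast traits, such as the secretion of collagen and the assembly of actin stress fibres, and gains mitochondria and lipid enzymes. The members of the comparison are all genes, and the sections below go from storage genes to mitochondria, matrix, contractile genes, the interferon response, secreted signals, lysosomes and the cell cycle.

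The deposited values were FPKM, fragments scaled to transcript length and to the mapped fragments of the library, for 13110 rows that gave 13084 genes. Every row was above 0 in all libraries, and a listed gene without a row was not analysed here. From the steps between low values, the depth was estimated at about 15000000 fragments in sh-CACUL1 and 24000000 in sh-Luc, so that a single fragment on a 2 kb transcript adds 0.0334 and 0.0208 FPKM. The median gene had 5.68 FPKM in sh-CACUL1 and 8.28 in sh-Luc. As deposited, therefore, the median log2 ratio of sh-CACUL1 over sh-Luc lay at -0.30 instead of 0, and a median-of-ratios factor of 0.72, taken over 9996 genes, brought it to 0.01. The 10 most abundant genes took 9.45% of all FPKM in sh-CACUL1 and 7.16% in sh-Luc. Log2 ratios below are on FPKM + 1 after this scaling, unless stated otherwise, and the added 1 makes them understate the difference of genes with low FPKM. A gene is called higher or lower when it was at least 2-fold apart in the same direction both as deposited and after scaling.

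By this rule 647 genes, or 4.94% of all genes, were higher in sh-CACUL1, and 976, or 7.46%, were lower. The scale decides much of this split. On the deposited values alone 4.94% were higher and 16.4% lower, while after scaling alone 9.38% were higher and 7.46% lower. Against FLAG in place of sh-Luc, 7.45% of genes were higher in sh-CACUL1 and 12.8% lower. List counts against FLAG below are to be read beside these shares, and those against sh-Luc beside 4.94% and 7.46%. The distance between both controls gives a scale for these counts. FLAG and sh-Luc, neither of which was made to alter CACUL1, were at least 2-fold apart for 1123 genes in one direction and 976 in the other, or 16.0% of all genes, whereas sh-CACUL1 and sh-Luc were apart for 1623 genes, or 12.4%. The selected line and the extent of differentiation also differed between both hairpin libraries, and FLAG differed from them in vector and drug as well. The part of these factors in the lists below cannot be told apart from that of the hairpin.

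**Figure D1:**
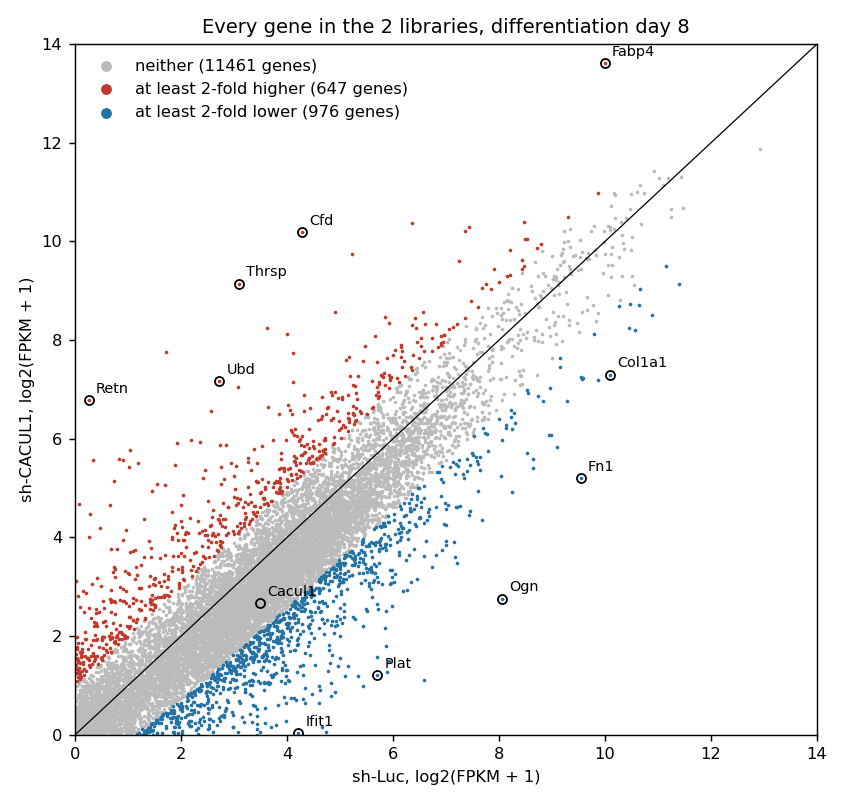
Each point is 1 gene, with log2(FPKM + 1) in sh-Luc on the horizontal axis and in sh-CACUL1 on the vertical axis, and the line marks equal values. Red points are the 647 genes at least 2-fold higher in sh-CACUL1 on both scales and blue points the 976 genes at least 2-fold lower, and Cacul1 lies among the grey points of neither group.

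Cacul1 itself, on chr19:60524696-60581023 of GRCm38, stood at 5.39 FPKM in sh-CACUL1 and 10.3 in sh-Luc. It had 9.61 FPKM in FLAG and 11.8 in FLAG-CACUL1. The sh-CACUL1 library was thus the lowest of the 4, the direction its label gives. The log2 ratio was -0.82 as deposited and -0.40 after scaling, so the transcript did not reach the 2-fold rule on either scale. At the estimated depth these values rest on about 268 fragments in sh-CACUL1 and 818 in sh-Luc. A hairpin can lower a protein further than its transcript, and protein was not measured in these files. The paper followed CACUL1 protein in its stable sh-CACUL1 cells by western blot, apart from these libraries. No other gene of the cullin machinery was called either. Of 16 measured members, which include Cul1 at 32.3 FPKM in sh-CACUL1 and 42.4 in sh-Luc and the adaptor Skp1a at 81.8 and 90.9 FPKM, all stayed inside the rule, with log2 ratios between -0.98 for Cand2 and 0.94 for Cul4b.

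The labels call the cells preadipocytes, but several genes of mature fat cells were abundant in both libraries, and most were higher in sh-CACUL1. Of 21 measured adipocyte markers 17 were higher and none was lower. Fabp4, the fatty acid carrier of adipocytes, was the most abundant gene of sh-CACUL1 with 12543 FPKM, against 1020 in sh-Luc, a log2 ratio of 4.09. Retn, which encodes the secreted hormone resistin, had 109 FPKM against 0.192, a value of about 5 fragments, and Cfd, the secreted protease adipsin, had 1159 against 18.5. Cidec, a lipid droplet protein, had 1324 FPKM against 81.5. The oxysterol receptor gene Nr1h3 had 42.2 FPKM against 1.03. Pparg, the central receptor of the programme, had 61.8 FPKM in sh-CACUL1 and 14.8 in sh-Luc, a log2 ratio of 2.45. The 4 markers that were not called were Nnat, Plin4, Cebpb and Srebf1, with log2 ratios of 0.18, 0.99, 0.79 and 1.38.

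Against FLAG 6 of these 21 markers were higher in sh-CACUL1 and 2 were lower, beside 7.45% and 12.8% of all genes. FLAG cells had 70.1 FPKM of Pparg, 1143 of Lpl and 1070 of Cfd, so for these genes sh-CACUL1 resembled FLAG and sh-Luc stood low. Fabp4, Cidec, Retn and Nr1h3 lay between, with 4991, 123, 36.9 and 14.5 FPKM in FLAG, below sh-CACUL1 and above sh-Luc. The 21 markers summed to 18889 FPKM in sh-CACUL1, 9324 in FLAG and 2038 in sh-Luc. Adipoq, which encodes the fat hormone adiponectin, had 1252 FPKM in sh-CACUL1, 837 in FLAG and 171 in sh-Luc. In such bulk RNA more fat cells and more RNA of the programme per cell cannot be told apart. Markers of other cell types were low. Of the 14 macrophage markers listed 6 had a row and none was called. They summed to 6.96 FPKM in sh-CACUL1, 9.36 in sh-Luc and 40.9 in FLAG, against which 3 of the 6 were lower, and Lyz2 was the highest in the hairpin libraries with 5.03 FPKM in sh-Luc. Of 8 skeletal muscle markers 3 had a row, and 1 of these, the intermediate filament gene Des, was higher with 4.04 FPKM against 1.13 and 8.35 in FLAG. The part of such cells in the results was not tested. The endothelial markers Pecam1 and Vwf did not pass 0.145 FPKM in either hairpin library.

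Genes of precursor cells did not move as a block. Of 13 measured preadipocyte markers 3 were higher and 5 lower in sh-CACUL1. Dlk1, an inhibitor of adipogenesis that precursors shed on differentiation, was higher, with 21.2 FPKM against 0.220. The surface glycoprotein gene Thy1 had 34.3 FPKM against 0.663, and Zfp423, a zinc finger determinant of the preadipocyte state, had 6.52 against 0.953. The receptors Pdgfrb and Pdgfra went the other way, with 7.34 FPKM against 60.1 and 24.2 against 84.9, though FLAG had 13.0 FPKM of Pdgfra. Sox9, Cd44 and Gata2 were also lower, and Gata2, a transcription factor that holds back adipogenesis, had 0.124 FPKM against 2.29. FLAG, with 97.2 FPKM of Dlk1 and 42.4 of Thy1, lay above both hairpin libraries for these genes.

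Mitochondrial genes were on the higher side. The respiratory chain moves electrons from NADH through complexes I to IV and lets complex V make ATP. Of 37 measured complex I subunits 12 were higher and none lower, and of 40 measured genes of complexes II to V 19 were higher and none lower, beside 4.94% and 7.46% of all genes. Among the complex I subunits, Ndufc2 had 198 FPKM in sh-CACUL1 and 58.2 in sh-Luc, and Ndufa1 had 219 against 70.6. Cox7b, a subunit of cytochrome c oxidase, had 377 FPKM against 93.4, and Cycs, the mobile carrier cytochrome c, had 154 against 39.2. Cox7a1, the subunit form of muscle and brown fat, had 16.0 FPKM against 2.80, but FLAG held 109 FPKM of it. The difference was spread over the chain rather than carried by those genes, since the median log2 ratio was 1.21 for complex I, within a range from -0.08 to 2.22, and 1.38 for the others, within a range from 0.38 to 2.56. On the deposited scale the medians were 0.74 and 0.91. Against FLAG 6 complex I genes were higher and none lower, and of complexes II to V 14 were higher and 1 lower.

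**Figure D2:**
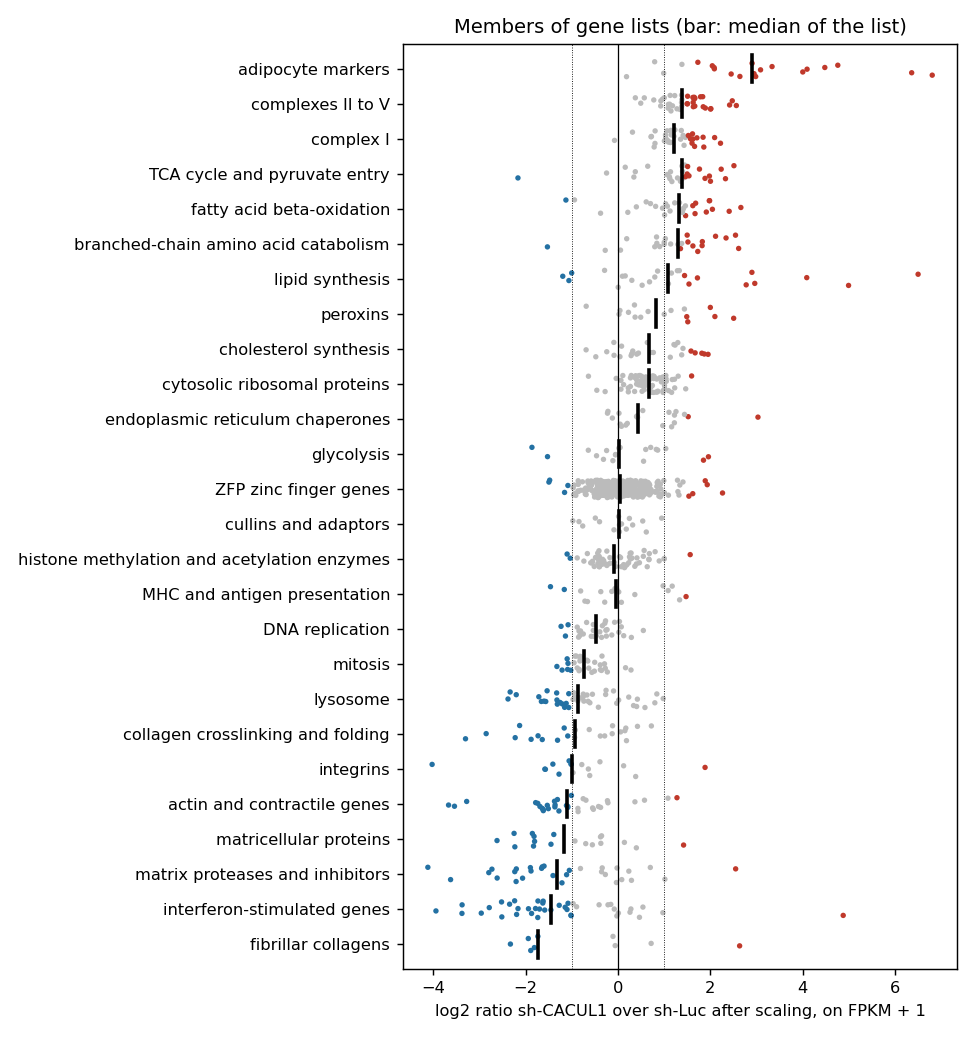
Each point is a gene of the list named on the left, placed by its log2 ratio of sh-CACUL1 over sh-Luc on FPKM + 1 after scaling, with black bars at list medians and dotted lines at 2-fold. Red and blue points passed the 2-fold rule on both scales, and the medians run from 2.90 for the adipocyte markers to -1.74 for the fibrillar collagens.

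These subunits are small, and transcript length moved with the ratio throughout this pair of libraries. Among 9911 genes with at least 1 FPKM in both, Spearman's rho between length and log2 ratio was -0.24, given as a description, since genes share libraries. Transcripts under 1000 bases had a median log2 ratio of 0.51, with 12.5% of them higher. Those over 6000 bases had a median of -0.23, with 10.4% lower. GC content had a rho of 0.004. The median transcript of complex I measured 758 bases and that of complexes II to V 816 bases. When the median ratio of genes of like length was taken off each gene, the medians of both lists were 0.97 and 1.03. On this single adjusted scale 1181 of the 12893 genes with a length were at least 2-fold higher and 907 lower. Of both lists 17 and 21 members were higher and none lower. After scaling alone, without the adjustment, these counts were 30 and 33, so both fell with the adjustment. The 80 cytosolic ribosomal protein genes, of like size at a median of 795 bases, had a median log2 ratio of 0.67 but only 1 called member, Rpl39, and their median after the length adjustment was 0.27.

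**Figure D3:**
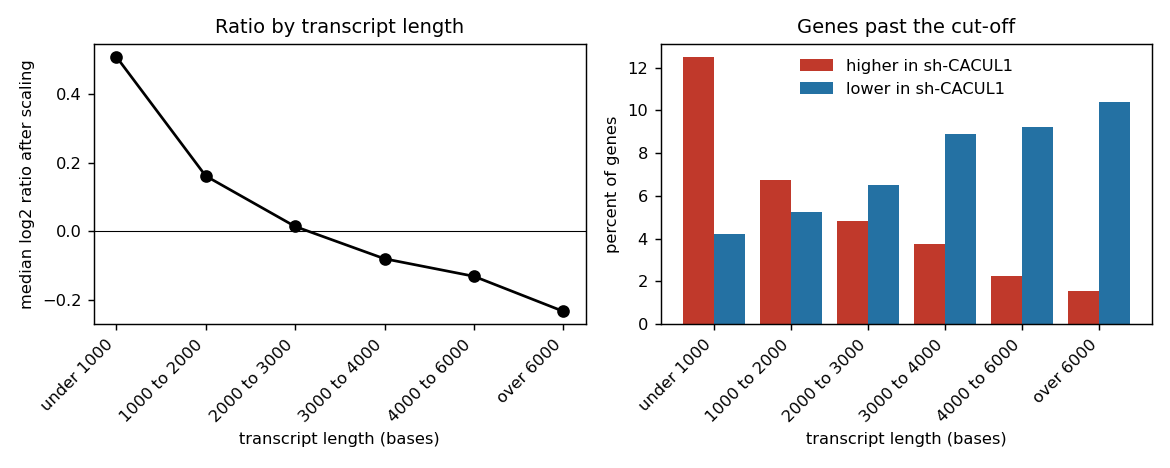
The left panel gives the median log2 ratio of sh-CACUL1 over sh-Luc after scaling for genes with at least 1 FPKM in both libraries, in 6 bins of transcript length in bases. The right panel gives the percent of genes in each bin that passed the 2-fold rule, higher in red and lower in blue, and the higher share falls from 12.5% to 1.52% as the lower share climbs from 4.21% to 10.4%.

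Longer mitochondrial enzymes gave the same picture. Of 28 measured genes of the TCA cycle and of pyruvate entry, with a median length of 2525 bases, 11 were higher and 1 lower. Pcx, pyruvate carboxylase, which makes oxaloacetate for citrate export, had 350 FPKM against 84.3, and Mpc1, a subunit of the mitochondrial pyruvate carrier, had 186 against 50.6. Pdhb, a subunit of pyruvate dehydrogenase, had 221 FPKM against 64.3. The kinase that switches this enzyme off, Pdk4, was the lower member, with 1.36 FPKM against 12.6. The median log2 ratio of the list was 1.39, and 1.27 after the length adjustment. Against FLAG 9 of these genes were higher and 3 lower.

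The breakdown of branched-chain amino acids, a source of acetyl-CoA for lipid synthesis in fat cells, showed 11 higher genes and 1 lower among 25. Hibadh, of the valine branch, had 191 FPKM against 42.4. Bcat2, the mitochondrial aminotransferase that starts the pathway, had 152 against 35.3, whereas Bcat1, its cytosolic counterpart, was the lower gene with 0.381 against 3.75. Aldh6a1, a dehydrogenase of the same branch as Hibadh, had 113 FPKM against 30.2 and Bckdhb, a subunit of the branched-chain ketoacid dehydrogenase, had 26.4 against 7.59 and 30.1 in FLAG. Against FLAG 9 genes of the pathway were higher and 2 lower.

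Beta-oxidation, which burns fatty acids, was higher beside the genes that make fat. Of 29 measured genes 10 were higher and 1 lower. Crat, carnitine acetyltransferase, had 97.7 FPKM against 20.5, and the medium-chain dehydrogenase gene Acadm had 313 against 81.1. Hadhb, of the trifunctional protein, had 143 FPKM against 47.3, and Cpt2, of the inner membrane, had 49.5 against 16.5. Cpt1a, which admits fatty acids into mitochondria, was the lower member, with 6.69 FPKM in sh-CACUL1, 21.7 in sh-Luc and 6.02 in FLAG. Among 38 SLC25 carriers of the inner membrane 6 were higher, led by the dicarboxylate carrier Slc25a10 with 99.2 FPKM against 26.5, and 1 was lower, Slc25a24, with 4.71 against 32.5. Of 16 peroxins, which build peroxisomes, 5 were higher and none lower. Pex16 had 69.1 FPKM against 16.0 and Pex11a had 18.0 against 4.94 and 21.2 in FLAG. Mitochondrial ribosomal proteins were called less often, with 6 higher and none lower of 78.

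For lipid synthesis 9 of 25 measured genes were higher and 3 lower. Thrsp, a regulator of fatty acid synthesis in fat and liver, had 564 FPKM in sh-CACUL1, 7.52 in sh-Luc and 32.8 in FLAG. Scd1, the desaturase that makes oleate, had 857 FPKM against 36.3, although FLAG held 1914. Gpd1, which supplies the glycerol backbone of triglyceride, had 213 FPKM against 16.3, and Dgat1, which closes the last step, had 202 against 35.0. The lower genes were Lpin3, Fads3 and Elovl6, and the elongase Elovl6 stood at 4.36 FPKM against 13.3 and 3.36 in FLAG, with a log2 ratio of -1.003 that only just met the rule. After the length adjustment none of the 3 was 2-fold lower. Cholesterol synthesis was less apart, with 5 of 26 members higher and none lower, and a median log2 ratio of 0.67. Acat2 and Nsdhl led it with 111 FPKM against 39.0 and 45.5 against 16.5. Of the nuclear receptors 5 of 25 were higher and 2 lower. Rxra, the partner of PPARγ, had 79.9 FPKM against 35.0, and Vdr, the vitamin D receptor, had 2.42 against 12.3 and 2.29 in FLAG. Their coregulators hardly differed by this rule. Of 24 only Kat2b, an acetyltransferase, was called, with 23.5 FPKM against 10.3, and among 59 enzymes of histone methylation and acetylation it was the only higher member, beside Hdac4 and Sirt6 as lower ones.

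Glycolysis and the targets of HIF1 depended on which control was used. Against sh-Luc 2 of 19 glycolysis genes were higher and 2 lower. Pgk1 had 558 FPKM in sh-CACUL1 and 214 in sh-Luc, and Ldhb had 154 against 54.2. The glucose transporter gene Slc2a1 had 14.5 FPKM against 60.4, and Hk1, the first enzyme, had 8.84 against 47.8. Against FLAG, by contrast, 16 of the 19 were lower and 1 higher, and of the 19 HIF1 targets 17 were lower and none higher, while against sh-Luc 4 were lower and 1 higher. FLAG had 1063 FPKM of Slc2a1 and 1512 of Pgk1, far above either hairpin library. Adm, the vasodilator adrenomedullin, had 0.525 FPKM in sh-CACUL1, 13.1 in sh-Luc and 196 in FLAG. Vegfa, also a HIF1 target, was higher than in sh-Luc, with 117 FPKM against 27.8, and lower than the 266 FPKM of FLAG. Low glycolysis transcripts in sh-CACUL1 were thus a matter of the FLAG comparison and not of the sh-Luc comparison.

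Several lists of the extracellular matrix were on the lower side. Of 9 measured fibrillar collagen chains 5 were lower and 1 higher. Col1a1, the main chain of type I collagen, had 156 FPKM in sh-CACUL1, 1095 in sh-Luc and 2412 in FLAG. Col3a1 had 365 FPKM against 1879 in sh-Luc, and Col1a2, the second type I chain, had 301 against 1396. Col11a2 was the exception, with 20.1 FPKM against 3.51. The median log2 ratio was -1.74 and stayed at -1.64 after the adjustment for length, which is large in these genes with a median of 6119 bases. Against FLAG 6 of the 9 were lower and 1 higher. Of 12 other collagen chains 2 were lower, Col8a1 and Col16a1, and 2 higher, Col7a1 and Col20a1, and their median log2 ratio of -0.35 was 0.01 after the length adjustment. Col8a1, of a short-chain network collagen, had 0.464 FPKM against 11.01 and 0.147 in FLAG. Basement membrane genes were less apart than the fibrillar chains. Of 17, agrin, encoded by Agrn, and the laminin chains Lamb2 and Lama4 were lower and none was higher, but against FLAG 12 of the 17 were lower.

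Matrix proteins around the collagen fibrils were lower too. Fn1, which encodes fibronectin, the glycoprotein through which cells grip the matrix, had 35.8 FPKM in sh-CACUL1, 745 in sh-Luc and 928 in FLAG, a log2 ratio of -3.87 against sh-Luc. It was 1 of 9 lower members among 16 of the elastic fibre and fibronectin list, in which Ltbp2 was the only higher gene. Ogn, a small proteoglycan of connective tissue, had 5.77 FPKM against 264, yet only 1.23 in FLAG, so there the sh-Luc library stood apart from both others. Dcn, decorin, had 9.60 FPKM against 106. Of 14 small leucine-rich proteoglycans 5 were lower and none higher, and of 18 matricellular proteins 9 were lower and 1, Comp, was higher. Against FLAG the proteoglycans were divided, with 3 lower and 3 higher, and the matricellular list had 6 lower and 1 higher. The proteoglycan median log2 ratio against sh-Luc was -0.24, and -0.09 after the length adjustment. Thbs1, a thrombospondin, had 10.7 FPKM against 75.0, and Spp1, osteopontin, had 5.29 against 51.2.

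Enzymes that finish and cut the matrix followed. Of 23 measured genes of collagen crosslinking and folding 10 were lower and none higher. Lox, lysyl oxidase, had 29.4 FPKM in sh-CACUL1 against 303 in sh-Luc and 442 in FLAG. P4ha3, a prolyl hydroxylase subunit, had 0.116 against 12.02, but FLAG had only 0.545, so for this gene sh-Luc stood apart. Against FLAG 13 of the 23 were lower and none higher. The list of matrix proteases and their inhibitors held 18 lower genes and 1 higher among 30. Plat, the plasminogen activator tPA, had 1.32 FPKM against 51.0 and 18.7 in FLAG. Mmp9, a gelatinase, had 0.572 against 23.1, but FLAG had only 1.65. Timp2, an inhibitor of such proteases, was lower as well, with 55.8 FPKM against 546, but FLAG had 34.7, below both. Mmp3 had 1.68 FPKM against 22.1. Adamts15 was the only higher member, with 4.63 FPKM against 0.125. When genes with at least 1 FPKM in either library were grouped by the leading letters of their symbols, the Adamts group had the lowest median among groups of at least 10 such genes, -1.11 over 11 genes. The median Adamts transcript measured 5188 bases, and the group median was not adjusted for length. Against FLAG the list of proteases and inhibitors was divided, with 12 lower and 5 higher.

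Integrins connect this matrix to actin. Of 16 members of that list 8 were lower and 1, Itga7, was higher, with 5 lower after the length adjustment. Itgb1, the common beta chain of most matrix receptors, had 52.8 FPKM against 220, and Itgav had 4.93 against 22.9. Itgbl1, a related secreted protein and not a receptor, had the largest difference of the list, with 1.83 FPKM against 59.4, but FLAG had only 1.09, so that sh-Luc stood apart. Inside the cell 20 of 34 actin and contractile genes were lower and 1 higher. Acta2, smooth muscle actin, had 1.27 FPKM in sh-CACUL1, 33.1 in sh-Luc and 2.90 in FLAG. Cnn2, a calponin, had 10.1 FPKM against 147, with 11.6 in FLAG, and Csrp2, a LIM protein of smooth muscle, had 2.47 against 57.4. The nonmuscle myosin gene Myh9 had 20.7 FPKM against 102, and FLAG, at 87.7, resembled sh-Luc here. Myh11, the smooth muscle myosin, was the higher member at low levels of 1.92 and 0.411 FPKM. Against FLAG 14 of the 34 were lower and 2 higher. Tubulins showed 3 lower of 12, led by Tuba4a with 0.777 FPKM against 21.1.

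**Figure D4:**
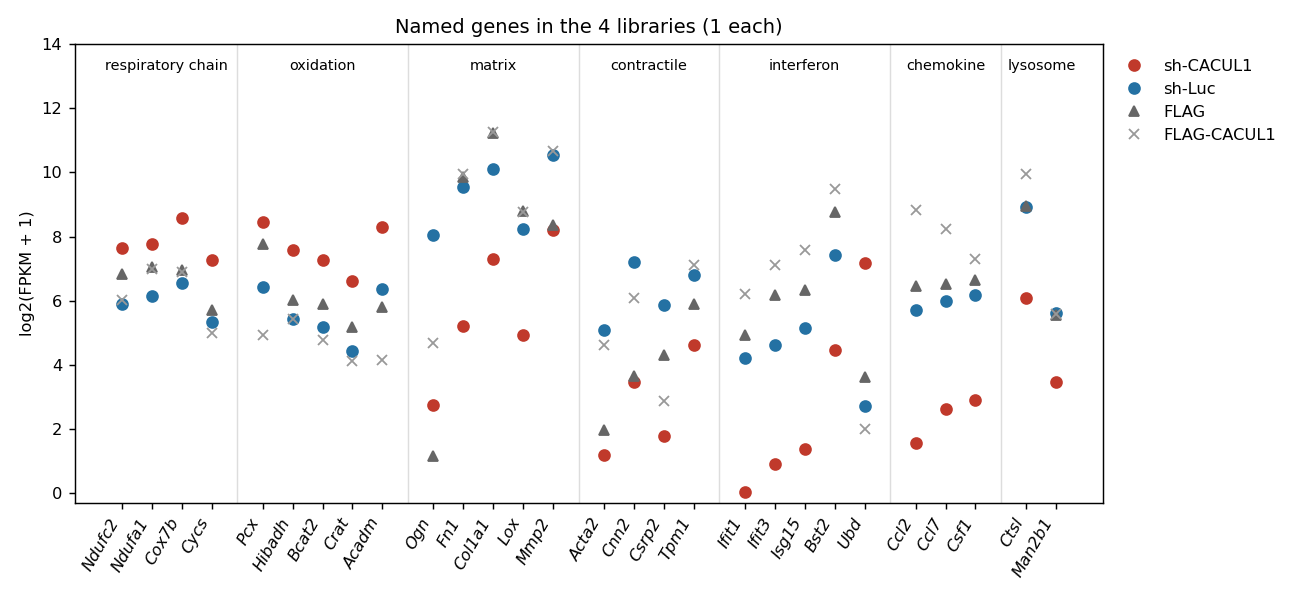
Named genes are shown by log2(FPKM + 1) in each of the 4 libraries, 1 library per group, with groups of genes marked along the top. For the matrix gene Fn1 and the interferon-stimulated genes Ifit1 and Isg15 the red point of sh-CACUL1 lies below the other 3, whereas for Acta2 and Cnn2 it lies close to FLAG.

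Adhesion and guidance genes were mixed. Of 67 cadherins and protocadherins 8 were lower, or 11.9% beside 7.46% of all genes, and 1 was higher, while against FLAG 2 were lower and 2 higher. The median log2 ratio was -0.08 against sh-Luc and 0.34 after the length adjustment. Cdh11, a cadherin of mesenchymal cells, had 17.9 FPKM against 128, but FLAG had only 8.54. Only 26 of these 67 reached 1 FPKM in either library. Semaphorins and plexins had 5 lower and 2 higher of 23, or 3 and 3 after the length adjustment, led by Sema3a with 1.75 FPKM against 27.2, and Nrp2, which encodes a semaphorin receptor, had 1.30 against 39.4. Ephrins and their receptors had 3 lower and none higher of 14, led by Efnb2 with 0.675 FPKM against 16.6. Gja1, the gap junction protein connexin 43, had 0.824 FPKM against 29.1.

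The interferon response was lower in sh-CACUL1 than in either control. Type I interferon acts through a factor complex, with STAT2 and IRF9 among its parts, that binds the interferon-stimulated response element, ISRE, in front of antiviral genes. Of 44 genes listed 41 had a row, and of these 27 were lower and 1 higher. Ifit1, an antiviral RNA-binding protein, had 0.0258 FPKM in sh-CACUL1, the value of about 1 fragment, against 17.5 in sh-Luc and 29.6 in FLAG. Ifit3, of the same family, had 0.878 FPKM against 23.8 and 70.9, and Isg15, a ubiquitin-like modifier, had 1.62 against 34.4 and 79.8. The sensor-related gene Oasl2 had 0.172 FPKM against 9.84 and 25.8, and Bst2, the tether that holds virus on the cell surface, had 20.97 against 173 and 437. All 5 genes were thus lowest in the knockdown library and highest, of these 3 libraries, in FLAG. Over the list 30 members were lower and 1 higher against FLAG. The median log2 ratio against sh-Luc was -1.45, and -1.32 after the length adjustment, with 25 members lower.

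Within the list the signalling genes differed among themselves. Stat2 had 3.83 FPKM against 31.8 and Irf7, which amplifies the response, had 1.81 against 9.91. Irf9 had 5.48 FPKM against 16.6, with a log2 ratio of -1.02, just past the rule. Irf1, in contrast, had 28.2 FPKM against 19.4 and a log2 ratio of 0.97, and was not called. Ubd was the higher member, with 142 FPKM in sh-CACUL1, 5.60 in sh-Luc and 11.3 in FLAG. It encodes FAT10, a ubiquitin-like protein that is also induced by interferon gamma and TNF. Antigen presentation, often induced by the same cytokines, was not lower as a whole. Of 18 genes 2 were lower and 1 higher against sh-Luc, although 14 were lower against FLAG. B2m, the light chain of class I molecules, had 418 FPKM against 1601 in sh-Luc and 3255 in FLAG.

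Promoter entries from RefSeq on GRCm38.p6 were found for 10201 measured genes. The ISRE was looked for as GAAANNGAAA, on both strands, in the 250 bases before the start given by each entry. It was present in 10 of the 19 lower interferon-stimulated genes with an entry, or 52.6%, and in 330 of all 10201, or 3.23%. The motif was also in promoters of members that were not called, such as Gbp2 and Irgm1, so that 13 of all 30 list members with an entry held it. It was not in the window of Ubd. The windows of 4 lower genes are printed because they carry the motif more than once in a short stretch. Capitals mark each match, read on the gene's own strand, where TTTCNNTTTC is the match of the other strand. Ifit1 lies at chr19:34640745-34640853 on the + strand, Ifit3 at chr19:34583333-34583456 on the + strand, Isg15 at chr4:156200835-156200936 on the - strand and Bst2 at chr8:71537547-71537642 on the - strand. The Ifit3 window lies inside the span listed for the gene, which begins at 34583119, so it precedes a later start entry. Overlapping matches in Isg15 and Bst2 merge into a single run of capitals, which holds 3 matches in Isg15 and 2 in Bst2.
Ifit1: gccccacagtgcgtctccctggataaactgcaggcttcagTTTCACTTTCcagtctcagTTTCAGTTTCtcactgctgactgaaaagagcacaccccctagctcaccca
Ifit3: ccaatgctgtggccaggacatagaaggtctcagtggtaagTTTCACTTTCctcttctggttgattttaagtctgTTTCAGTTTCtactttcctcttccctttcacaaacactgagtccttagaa
Isg15: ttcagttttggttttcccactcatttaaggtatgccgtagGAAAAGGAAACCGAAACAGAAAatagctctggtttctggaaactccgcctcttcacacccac
Bst2: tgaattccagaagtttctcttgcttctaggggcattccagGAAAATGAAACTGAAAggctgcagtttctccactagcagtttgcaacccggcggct

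The same search was made for 3 other motifs. The CArG box, the site of serum response factor, was in 4 of 29 actin and contractile genes with an entry, or 13.8%, against 145 of all 10201, or 1.42%. Among the 18 lower contractile genes it was in 1, Cnn2, whose window at chr10:79988504-79988593 on the + strand is given with the box in capitals.
Cnn2: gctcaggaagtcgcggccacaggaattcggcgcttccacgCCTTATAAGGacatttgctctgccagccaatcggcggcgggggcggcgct
The motif of NRF1, a factor of mitochondrial gene expression, searched as GCGCANGCGC, was in 6 of 33 complex I genes and in 7 of 31 genes of complexes II to V, or 18.2% and 22.6%, against 937 of all, or 9.19%. Among the higher members it was in 1 of 11 and 2 of 16. The sterol element TCACNCCAC was in 1 of 19 cholesterol genes, against 119 of all. These matches are letters in a window, and factor binding was not measured.

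Secreted signals of inflammation had more lower than higher members. Of 27 chemokines and cytokines listed 9 were lower, 1 was higher and 17 were not called. Ccl2, the chief attractant of monocytes, had 2.00 FPKM in sh-CACUL1, 51.1 in sh-Luc and 87.3 in FLAG, and Ccl7, a related attractant, had 5.15 against 62.4. Csf1, the macrophage growth factor, had 6.54 FPKM against 71.9. Ccl9 was the higher one of the list, with 17.9 FPKM against 5.82. Ccl6, a related chemokine outside the list that was noted after its values were seen, was also higher, with 28.1 FPKM against 3.09 and 0.632 in FLAG. Acute phase genes went the other way against sh-Luc, with 6 higher and 1 lower of 11, and had 1 higher and 5 lower against FLAG. Complement genes did not share this, with 1 higher and 2 lower of 11 against sh-Luc and 1 higher and 5 lower against FLAG. Orm1, an acute phase carrier protein, had 57.9 FPKM against 6.21. Lcn2, lipocalin 2, had 42.3 FPKM in sh-CACUL1 and 5.71 in sh-Luc but 1581 in FLAG, and Hp, haptoglobin, had 26.7, 10.9 and 1568. The metallothionein gene Mt2, which responds to metals and glucocorticoid, had 0.984 FPKM, 42.1 in sh-Luc and 4503 in FLAG.

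Growth and patterning signals also had more lower than higher members. The lower share was 24% of growth factors and receptors, 29.6% of Wnt genes, 15.2% of TGF-beta and BMP genes and 27.8% of YAP targets. Of all genes 7.46% were lower. Of 25 growth factors and receptors 6 were lower and 2 higher. Ptn, pleiotrophin, which precursors secrete, had 148 FPKM against 758 but 77.2 in FLAG, and Fgf7 had 2.52 against 17.3. Egfr was higher at 2.92 FPKM against 0.425, with 7.16 in FLAG. No Wnt gene was higher and 8 of 27 were lower, led by Apcdd1, a Wnt inhibitor at the membrane, with 1.16 FPKM against 15.3, and by the receptor Fzd1 with 5.88 against 47.5. After the length adjustment 5 Wnt genes were lower and 2 higher. Of 33 genes of TGF-beta and BMP signalling 5 were lower and 1 higher. Fstl1, a secreted binding protein, had 107 FPKM against 625, and Gdf5, a BMP-like ligand, was the higher member with 3.08 against 0.298. Among targets of YAP 5 of 18 were lower, Ccn1 with 18.7 FPKM against 94.5 and the receptor kinase gene Axl with 16.8 against 77.8, and none was higher.

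Lysosomal genes were lower against both controls. Of 46 measured members 17 were lower and none higher against sh-Luc, and 17 were lower and 1 higher against FLAG. Of the 17, 16 encode hydrolases and 1, Scarb2, a membrane protein. Ctsl, cathepsin L, had 66.8 FPKM in sh-CACUL1, 488 in sh-Luc and 493 in FLAG. Man2b1, a lysosomal mannosidase, had 10.1 FPKM against 48.6 and 45.7 in FLAG. Pumps were not part of this, since of the 16 vacuolar ATPase genes only Atp6v0e2 was called, and it was higher, with 4.82 FPKM against 0.312.

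Cell cycle genes, of interest for a CDK2-associated protein, were somewhat low. Of 33 DNA replication genes 3 were lower and none higher, close to the 7.46% of all genes, and all 3 belong to the helicase that loads onto origins. Mcm4 had 6.16 FPKM against 21.7, Mcm2 had 5.90 against 19.5 and Mcm3 had 5.39 against 17.1. Of 30 mitosis genes 6 were lower and none higher, Anln with 1.84 FPKM against 8.17 in the lead, and the medians of both lists were -0.47 and -0.75. Against FLAG the replication list had no called member and the mitosis list had 1 in each direction, so sh-Luc was the library with more of these transcripts. Among 22 cyclins, kinases and inhibitors of G1 none was higher and 4 were lower. Cdk4 had 72.5 FPKM in sh-CACUL1, 304 in sh-Luc and 187 in FLAG, and its inhibitor Cdkn2b had 7.43, 61.2 and 37.1. Ccnd1, cyclin D1, had 25.1 FPKM against 90.8 in sh-Luc and 6.46 in FLAG. Of 29 p53 targets and death regulators only Plk2 was called, with 3.51 FPKM against 56.7.

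Stress pathways showed no common direction. Of 33 NRF2 and glutathione genes 4 were higher and 4 lower. The higher members were the transferases Mgst1, Mgst3, Gsta3 and Gstz1, and the lower ones included Nqo1, a quinone reductase, with 13.0 FPKM against 56.3 and 10.1 in FLAG. Of 20 targets of ATF4 5 were lower and 1 higher, and Ddit3, the factor CHOP, had 67.0 FPKM against 216. Of 21 chaperones of the endoplasmic reticulum 2 were higher and none lower, Dnajb9 with 118 FPKM against 19.1 and Pdia4 with 219 against 105. Cytosolic chaperones had 2 higher and 3 lower of 27, with Cct2 at 779 FPKM against 151 and Cryab at 22.7 against 127. Spliceosome genes had 3 lower and none higher of 43. The large ZFP zinc finger family was quiet, with 5 higher and 4 lower of 345.

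Taking all genes with at least 5 FPKM in one of both libraries, the 15 with the largest smaller log2 ratio of both scales on the higher side were Retn, Ephx2, Thrsp, Cfd, Cbr1, Mrap, the row NM_017388, Ear2, Fam213a, Eif3j1, Scd1, Ubd, Nr1h3, Thy1 and Cib2. Ephx2, an epoxide hydrolase, had 216 FPKM against 2.27 and 78.8 in FLAG. Mrap, a chaperone of the corticotropin receptor in fat and adrenal cells, had 47.1 FPKM against 0.775. Fam213a had 303 FPKM against 11.3. On the lower side the 15 were Gm47283, Ogn, Eif3j2, Pla2g7, Hmga2, Plat, Mt2, Itgbl1, Ifit1, Fn1, Nrp2, Ccl2, Tes, Gja1 and Csrp2. Hmga2, a chromatin protein of proliferating mesenchymal cells, had 1.43 FPKM against 57.9 and 5.40 in FLAG. Pla2g7, a secreted phospholipase, had 0.109 FPKM against 24.3 and 0.800 in FLAG, and Tes, a focal adhesion protein, had 0.728 against 27.4.

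A few of these rest on uncertain assignments. Eif3j1 and Eif3j2 are near-identical copies that exchanged their values, with 24.7 FPKM of Eif3j1 and 0.0357 of Eif3j2 in sh-CACUL1 against 0.0564 and 25.7 in sh-Luc. Their sum was 24.7 FPKM in sh-CACUL1 and 25.7 in sh-Luc. Ear2 belongs to a family of close copies, and in FLAG it was listed at almost 0. The histone genes, with 11 higher and 1 lower among the 49 with at least 1 FPKM in either library, are also close copies and short, at a median of 539 bases, and Hist1h4h led them with 54.3 FPKM against 9.41.

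Among the most abundant transcripts the libraries shared their housekeeping genes. After Fabp4 the highest in sh-CACUL1 were Fth1, Rps28, Rpl41 and Eef1a1. The highest in sh-Luc were Fth1, Ftl1, Rpl41, S100a4 and Rps12. Fth1, the heavy chain of ferritin, had 3751 FPKM in sh-CACUL1 and 7808 in sh-Luc, a log2 ratio of -0.58 after scaling. S100a4, a calcium-binding protein of fibroblasts, was the called gene on the lower side among these 5, with 564 FPKM against 2682 and 474 in FLAG. Lgals1, galectin 1, among the 10 highest of sh-Luc, was called as well, with 720.5 FPKM against 2271 and 717 in FLAG. In the same grouping by symbol, the highest medians were those of Ndufb at 1.38, Cox at 1.38, Ndufa at 1.25, Timm at 0.91 and Hist at 0.84. The lowest were Adamts at -1.11, Mcm at -0.87, Il at -0.75, Col at -0.67 and Sema at -0.64. These medians were not adjusted for length, and the highest groups had shorter transcripts than the lowest. In the order given, median lengths were 718, 680, 600, 1323 and 539 bases in the highest groups. They were 5188, 3376, 2548, 5989 and 4540 bases in the lowest.

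**Figure D5:**
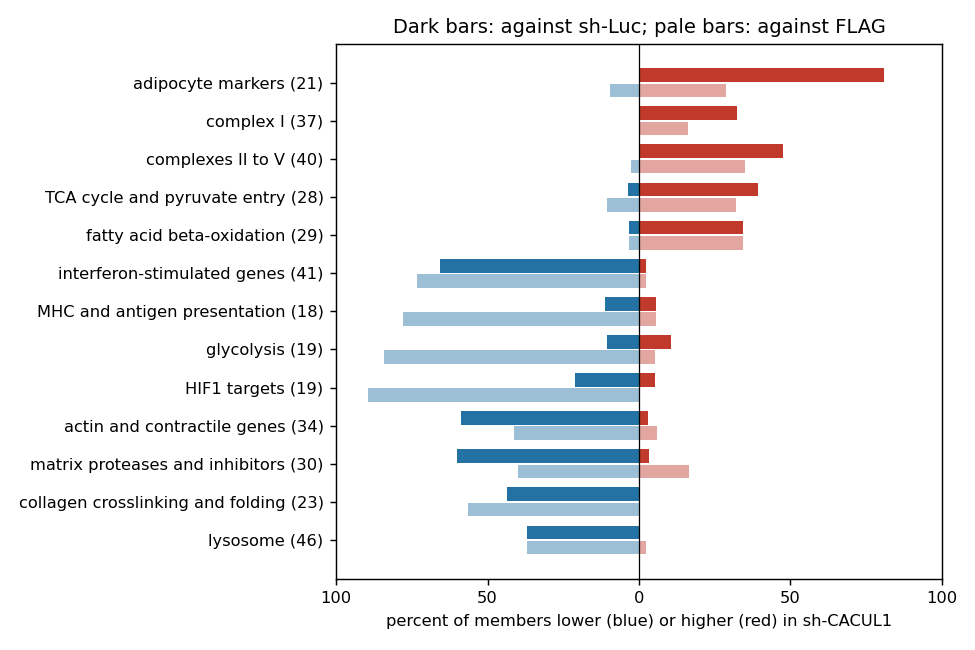
For 13 gene lists, with the number of measured members in brackets, the bars give the percent of members lower (blue, to the left) or higher (red, to the right) in sh-CACUL1, with dark bars against sh-Luc and pale bars against FLAG. Interferon-stimulated genes were lower against both, with 27 and 30 of 41, whereas glycolysis had 2 lower members against sh-Luc and 16 against FLAG.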

How the data were processed

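RNA was sequenced from 4 stable 3T3-L1 lines on differentiation day 8, with 1 sample each of sh-CACUL1, sh-Luc, FLAG and FLAG-CACUL1. For every sample the authors deposited FPKM, not counts, over 13110 rows named by RefSeq transcripts. The submitters' processing notes name the build mm10, and the aligner, the program behind the FPKM and any filter are not given in the sources used here. No read counts were used, so no count model was fitted.

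Rows were joined to symbols through GENCODE M21 for 12919 rows and through the RefSeq gene table for a further 144. No symbol was found for 47 rows, which kept their identifiers, and the 52 rows of 26 repeated symbols were summed. Log2 ratios of FPKM + 1 were taken as deposited and after division by the median ratio of genes with at least 1 FPKM in both libraries. A gene was called at 2-fold or more in the same direction on both scales. The depth was estimated from the steps of low FPKM values and is not stated by the study.

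The comparison, the 51 gene lists and the 20 symbol families were chosen with earlier results of these data known, so they are described and not tested. In each list the members named are Cacul1, up to 4 called members with the largest smaller absolute ratio of both scales in the main direction, up to 2 in the other and those needed to account for the list. Over all genes 15 in each direction and the 5 most abundant per library are named. A few further members, such as Pparg, Irf1, Rxra and Bst2, were named after their values were seen, for their role or for their promoter. Of the 13084 genes 12893 had a transcript length. There were 11 alternatives, and an adjustment for transcript length in 20 bins was added after seeing the data. The code was tested on simulated data. A few listed genes are not reported here. Python 3.11.15, numpy 2.4.6, pandas 2.3.3 and matplotlib 3.10.9 were used.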

Additional observations from a re-analysis of the deposited data

How the results depend on the processing

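With 1 library per group no paired analysis was possible because no group has a second replicate, and no replicate could be left out. The count of higher genes, 647, was within 1.5 times under deposited FPKM, a factor over all genes, both filters at 1 FPKM and the highest row per symbol. It was 1227 with scaling alone, 1145 with quantile normalization and 1181 after the length adjustment, all counted on a single scale. The length-adjusted count is thus to be read beside the 1227. By the rule of both scales it was 1084 with a pseudocount of 0.1, 1361 with none, 252 at 3-fold and 975 against FLAG. The count of lower genes, 976, was 2140 on deposited FPKM alone, 1530 with a pseudocount of 0.1, 1808 with none, 357 at 3-fold and 1681 against FLAG. For a called gene no sign change was possible under deposited FPKM, scaling alone, the 3-fold cut-off or the filters at 1 FPKM, which reuse the same ratios. Of the 167 called genes named, none changed sign under the settings that kept sh-Luc as the control, and 35 did against FLAG. The cause was not tested.

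Against FLAG the log2 ratio turned negative for Bckdhb (-0.027), Cbr1 (-1.18), Cib2 (-1.06), Cox7a1 (-2.54), Des (-0.76), Dlk1 (-1.99), Egfr (-0.93), Hp (-5.67), Itga7 (-0.69), Lcn2 (-5.04), Ltbp2 (-0.25), Pex11a (-0.073), Pgk1 (-1.28), Pparg (-0.023), Scd1 (-0.999), Thy1 (-0.14) and Vegfa (-1.01). It turned positive for Anln (0.038), Ccnd1 (1.95), Cdh11 (1.13), Col8a1 (0.39), Cpt1a (0.27), Elovl6 (0.42), Itgbl1 (0.53), Lamb2 (0.021), Lgals1 (0.17), Mcm3 (0.10), Mcm4 (0.081), Nqo1 (0.48), Ogn (1.71), Pdgfra (0.99), Ptn (1.08), S100a4 (0.41), Timp2 (0.82) and Vdr (0.17). Depth limits genes of few fragments, such as Ifit1 in sh-CACUL1 and Retn in sh-Luc, whose ratios rest on the pseudocount.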
